A study of Mus musculus with 8 samples.

Results

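The interferon-inducible GTPases are GTP-binding proteins with which a cell attacks or contains intracellular pathogens. Genes for 10 of them were taken by symbol from the 54146 genes of the deposited tables: the guanylate-binding proteins Gbp2, Gbp3, Gbp4, Gbp5, Gbp6, Gbp7 and Gbp9 and the regulatory immunity-related GTPases Irgm1, Irgm2 and Igtp, the last also known as Irgm3. RNA was sequenced from EL4 cells, a T lymphoma line of C57BL/6 mice, that carried a pair of retroviral constructs. The GFP + Plum line carried only the fluorescent control proteins, T-bet + Plum carried FLAG-T-bet with Plum, GFP + GATA3 carried HA-GATA3 with GFP, and T-bet + GATA3 carried both factors. All 8 libraries, 2 for each of the 4 lines, came from cells that had been stimulated for 4 h with ionomycin (1 μM) and the phorbol ester PMA (50 ng/ml). T-bet and GATA3 are the lineage-determining factors of TH1 and TH2 cells, and the design asks what each factor does alone and when expressed with the other. Each condition was a single transduced line. The p-values below measure the spread between libraries of the same line, pooled over the 4 lines in a single fit. A difference caused by the construct cannot be told apart from another difference between the lines.

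Guanylate-binding proteins are large GTPases that assemble on the membranes of pathogens and of the vacuoles that hold them, where they help to break the membrane and to start inflammasome signalling. The immunity-related GTPases also act on such vacuoles, and Irgm1, Irgm2 and Igtp form the regulatory class, which resides on the membranes of the cell and keeps the effector class inactive there. Both families are induced above all by interferon gamma, through GAS elements and ISRE elements in their promoters, the latter bound by IRF factors.

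In these cells, FLAG-T-bet was accompanied by higher levels of nearly the whole set. Averaged over both GATA3 states, 9 of the 10 genes were upregulated, with a log2 fold change (log2 FC) from 1.61 for Irgm1 to 5.46 for Gbp2. A gene counts as called here when its log2 FC exceeds 1.5 in size and its FDR, from the edgeR quasi-likelihood test over 14791 genes, is no higher than 0.05. Gbp3 was the exception. Over all genes tested, 2.91% were called higher in the effect averaged over both GATA3 states. HA-GATA3 was accompanied by no call among the members in either direction, where 0.0203% to 0.0473% of all genes were called. In these bulk libraries, more RNA per cell and more cells with the RNA cannot be told apart.

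The genes lie in 3 clusters of the mouse genome (GRCm38, Gencode M21), on chromosomes 3, 5 and 11. Gbp5 (chr3:142493978-142522344), Gbp7 (chr3:142530342-142550149), Gbp3 (chr3:142560026-142573209) and Gbp2 (chr3:142620602-142638008) follow each other on the plus strand of chromosome 3. Gbp9 (chr5:105077630-105139539), Gbp4 (chr5:105115767-105139586) and Gbp6 (chr5:105270702-105293698) lie on the minus strand of chromosome 5. Irgm1 (chr11:48861968-48871683, minus strand) stands apart from Igtp (chr11:58199556-58207591) and Irgm2 (chr11:58199618-58222782), which share the plus strand. Some of the genes overlap on the same strand: Gbp4 and Gbp9 share 23773 bases, and Igtp and Irgm2 share 7974 bases.

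The upstream sequences are shown because they hold a pattern common to the members that had a promoter entry. RefSeq promoter entries (GRCm38.p6) were matched by symbol for 7 of the 10 members, and Gbp4, Gbp6 and Gbp9 had none. The core of the interferon-stimulated response element (ISRE) was searched on both strands as GAAA and GAAA with 2 bases between them, in the 250 bases before the transcript start. All 7 members held it, in 7 of their 8 windows, against 2.98% of the 32851 promoters of the same table. For Igtp, Irgm2 and Gbp7 the 150 bases before the RefSeq start are printed, which hold no Gencode exon, with the ISRE core and the GAS pattern TTCNNNGAA in capitals (the ISRE core of Gbp7 reads on the other strand). They span chr11:58199406-58199555, chr11:58214827-58214976 and chr3:142530186-142530335, all on the plus strand.
Igtp: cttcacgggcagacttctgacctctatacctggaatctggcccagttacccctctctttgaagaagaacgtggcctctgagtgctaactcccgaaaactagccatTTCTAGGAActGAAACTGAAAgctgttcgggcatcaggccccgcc
Irgm2: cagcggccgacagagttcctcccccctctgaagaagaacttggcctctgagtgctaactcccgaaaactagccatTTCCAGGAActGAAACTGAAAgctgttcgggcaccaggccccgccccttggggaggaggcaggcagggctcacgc
Gbp7: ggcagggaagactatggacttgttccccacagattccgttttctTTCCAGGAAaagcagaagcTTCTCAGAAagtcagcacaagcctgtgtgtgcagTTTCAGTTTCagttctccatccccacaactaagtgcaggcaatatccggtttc

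For the other 4 members, 30 bases around the ISRE core are shown, since their windows overlap an annotated exon. They lie at chr3:142620594-142620623 (Gbp2), chr3:142559992-142560021 (Gbp3), chr3:142496759-142496788 (Gbp5) and chr11:48871428-48871457 (Irgm1, minus strand), with the core in capitals.
Gbp2: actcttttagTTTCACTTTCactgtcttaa
Gbp3: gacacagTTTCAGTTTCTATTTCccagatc
Gbp5: acttgtgtagTTTCAATTTCagtttagaga
Irgm1: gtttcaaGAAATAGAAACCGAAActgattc

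In Gbp3 and Irgm1 there were 2 overlapping copies of the core. The core lay within 64 bases of the RefSeq start in all members except Gbp5, where it began 165 bases before it. By the Gencode positions given above, the cores of Gbp2, Gbp5, Irgm1 and Irgm2 lay inside the annotated gene, not upstream of it. For Irgm1, all 150 bases before the RefSeq start were annotated as Irgm1 exon. The GAS pattern stood in 4 of the 7 members (Gbp5, Gbp7, Igtp and Irgm2) against 7.02% of all promoters. In Igtp and Irgm2 it was followed, after 2 bases, by the ISRE core, and the longest run of identical bases between their 250-base windows was 55 bases. The matches were not particular to the members. Tgtp1 and Tgtp2, related GTPase genes, had the same order and gap. Gbp2b, with at most 1 count in any library, held the ISRE core, while Ifi47, which was higher with FLAG-T-bet, had no match to it. The T-box half-site GGTGTGA, searched on both strands like the others, was in 0 of the 7 members and in 3.33% of all promoters. The GATA motif AGATAA was in 1 member, Gbp5, and in 9.99% of all promoters. These are letter matches in short windows, and binding was not measured in these files.

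**Figure D1:**
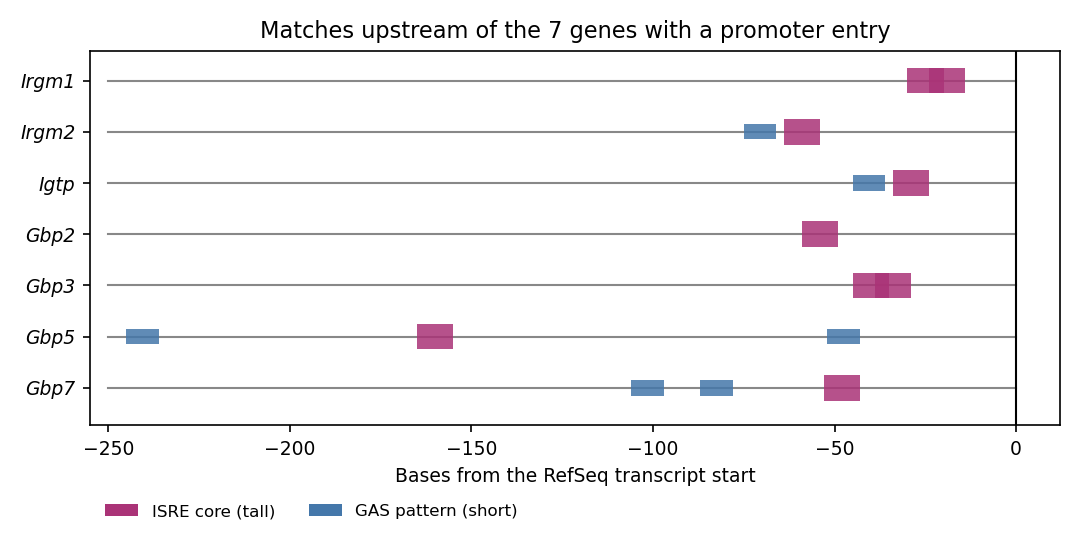
Positions of the ISRE core (tall boxes) and the GAS pattern (short boxes) in the 250 bases before the RefSeq transcript start of 7 members, with the x axis in bases from the start. For Gbp3, which has 2 entries, only the entry with matches shows any. The ISRE core lies within 64 bases of the start in 6 members and begins 165 bases before it in Gbp5, and Igtp and Irgm2 have the GAS pattern directly before it.

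Total estimated counts per library ranged from 8038565 to 16003519, so 3 counts stood for 0.187 to 0.373 CPM (counts scaled to library size). The labels were checked by the transcripts of the expressed factors. Tbx21, which encodes T-bet, was at 129 to 160 CPM in the libraries with FLAG-T-bet and at 1.78 to 3.59 CPM in the others, and Gata3 was at 165 to 326 CPM with HA-GATA3 and at 25.8 to 53.3 CPM without it. All 7 T cell markers had at least 10 counts in every library, with a summed level of 1739 to 2233 CPM. Of these, Cd2 and Lck were called higher in the T-bet effect averaged over both GATA3 states, with a log2 FC of 3.01 (SE 0.19, edgeR FDR = 5.28e-05) and 1.52 (SE 0.28, edgeR FDR = 0.00868). Of the markers of other cells, those of B cells reached at most 11 counts, and the 5 of macrophages summed to 2.16 to 4.15 CPM, mostly Cd68. The macrophage marker Lyz2 was called lower, from 6 to 12 counts without FLAG-T-bet to 1 or 2 with it (log2 FC -2.58, SE 0.47, edgeR FDR = 0.00837). The 3 markers of fibroblasts summed to at most 0.998 CPM. Of the 3 NK cell markers, Ncr1 was at 0 throughout and Klre1, an NK-type receptor gene, moved with FLAG-T-bet: the list summed to 0.127 to 0.287 CPM without it and to 5.10 to 12.4 CPM with it. The part of these marker changes in the results below was not tested.

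Irgm1 was the most abundant member in every library. Irgm1 protein guards the membranes of the cell and is needed for the survival of stimulated lymphocytes. Its level was 10.8 and 14.0 TPM (transcript abundance scaled for length and depth) in GFP + Plum, 8.02 and 13.3 in GFP + GATA3, 20.6 and 31.9 in T-bet + Plum, and 35.2 and 46.6 in T-bet + GATA3. All 4 libraries with FLAG-T-bet lay above the 4 without it. In counts, T-bet + Plum had 326 and 916 against 314 and 446 in GFP + Plum, and T-bet + Plum replicate 1 was the smallest library. Averaged over both GATA3 states, the log2 FC with FLAG-T-bet was 1.61 (SE 0.21, edgeR FDR = 0.00182). It was 2.11 (SE 0.30, edgeR FDR = 0.00645) between T-bet + GATA3 and GFP + GATA3, and 1.12 (SE 0.29, edgeR FDR = 0.0690) between T-bet + Plum and GFP + Plum, where it did not pass. The averaged value sat near the threshold of 1.5: it was 1.49 without GFP + Plum replicate 1, 1.46 without GFP + GATA3 replicate 1 and 1.44 without T-bet + Plum replicate 2, with each FDR below 0.05.

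Igtp, a regulator on the endoplasmic reticulum and on lipid droplets, was the third most abundant member in the lines with FLAG-T-bet. Its TPM was 0.564 and 0.407 in GFP + Plum, 1.49 and 0.802 in GFP + GATA3, 7.83 and 11.6 in T-bet + Plum, and 9.50 and 13.6 in T-bet + GATA3. The groups with and without FLAG-T-bet were far apart, and the lines with FLAG-T-bet overlapped each other. The averaged log2 FC was 4.02 (SE 0.24, edgeR FDR = 3.82e-05), the lowest FDR of the 10 genes. Irgm2, a regulator associated with the Golgi membrane, was at 0.328 and 0.447 TPM in GFP + Plum, 0.380 and 0.418 in GFP + GATA3, 1.73 and 1.78 in T-bet + Plum, and 1.55 and 2.10 in T-bet + GATA3. Its libraries fell into a low set without FLAG-T-bet and a high set with it, with little spread within each. The averaged log2 FC was 2.27 (SE 0.22, edgeR FDR = 0.000403).

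Gbp2 had the largest fitted change that rested on many counts. Its protein carries a lipid anchor at its C terminus and is among the guanylate-binding proteins that reach vacuoles of bacteria and of Toxoplasma. Its TPM was 0.366 and 1.17 in GFP + Plum, 0.416 and 0.555 in GFP + GATA3, 9.44 and 13.6 in T-bet + Plum, and 19.1 and 29.8 in T-bet + GATA3. In counts these were 7 and 34, 5 and 10, 168 and 456, and 461 and 917. Every library with FLAG-T-bet was above every library without it, and both T-bet + GATA3 libraries were above both T-bet + Plum libraries. The averaged log2 FC was 5.46 (SE 0.38, edgeR FDR = 9.32e-05), made up of 4.34 (SE 0.50, edgeR FDR = 0.00232) without HA-GATA3 and 6.58 (SE 0.57, edgeR FDR = 0.000671) with it. The first of these rested on single GFP + Plum libraries: the value of 4.34 became 3.60 without replicate 1 of that line and 5.89 without replicate 2, and the average of 5.46 became 6.24 without replicate 2, all called.

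Gbp7 and Gbp5 were close to absent without FLAG-T-bet. Gbp7, which is linked to the oxidative defence of macrophages, had 1 and 0 counts in GFP + Plum, 2 and 1 in GFP + GATA3, 22 and 33 in T-bet + Plum, and 34 and 15 in T-bet + GATA3. Gbp5, known for promoting assembly of the NLRP3 inflammasome, had 2 and 0, 1 and 0, 11 and 27, and 16 and 17 counts in the same order. Both genes were therefore at or under 3 counts in each of the 4 libraries without FLAG-T-bet. The ratio of summed counts with and without FLAG-T-bet, scaled for library size, was 32.2 for Gbp7 (95% counting interval 12.2 to 120) and 29.3 for Gbp5 (9.63 to 146). These intervals cover counting error only. Both genes passed in the averaged test, at an edgeR FDR of 0.00239 for Gbp7 and 0.00309 for Gbp5, though a fitted fold against so few counts depends on the prior count.

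Gbp3 did not pass. Its counts were 5 and 27 in GFP + Plum, 6 and 25 in GFP + GATA3, 15 and 25 in T-bet + Plum, and 44 and 58 in T-bet + GATA3. The libraries of GFP + Plum and T-bet + Plum overlapped, also in CPM. In counts and in CPM, only the T-bet + GATA3 libraries lay above all others. In TPM, T-bet + GATA3 replicate 1 (1.77) lay below T-bet + Plum replicate 1 (1.80). The averaged log2 FC was 1.37 (SE 0.49, edgeR FDR = 0.105). Without GFP + Plum replicate 2, the library with 27 counts, it was 2.20 at an edgeR FDR of 0.0151. The remaining member of the chromosome 3 cluster, Gbp2b, was at 0 counts in 7 of the 8 libraries and at 1 count in the other.

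On chromosome 5, Gbp4, Gbp6 and Gbp9 were all upregulated in the averaged test. Gbp4 had 11 and 9 counts in GFP + Plum, 10 and 7 in GFP + GATA3, 23 and 71 in T-bet + Plum, and 51 and 63 in T-bet + GATA3, with an averaged log2 FC of 2.73 (SE 0.33, edgeR FDR = 0.00124). Gbp6 had 5 and 2, 0 and 8, 22 and 78, and 68 and 59 counts in the same order, with an averaged log2 FC of 4.19 (SE 0.59, edgeR FDR = 0.00253). Without GFP + GATA3 replicate 2 the other library of that line was at 0 counts, and the fitted value, which then depends on the prior count, was 6.66 (9.16 between T-bet + GATA3 and GFP + GATA3). Gbp9 had 2 and 2, 4 and 5, 9 and 12, and 16 and 17 counts, with an averaged log2 FC of 2.42 (SE 0.40, edgeR FDR = 0.00567). In each of the 3 genes every library with FLAG-T-bet lay above every library without it. These proteins are less studied than Gbp2 and Gbp5. Gbp8 of the same cluster had 3 to 10 counts without and 5 to 20 with FLAG-T-bet, and Gbp11 was at 0 in every library.

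**Figure D2:**
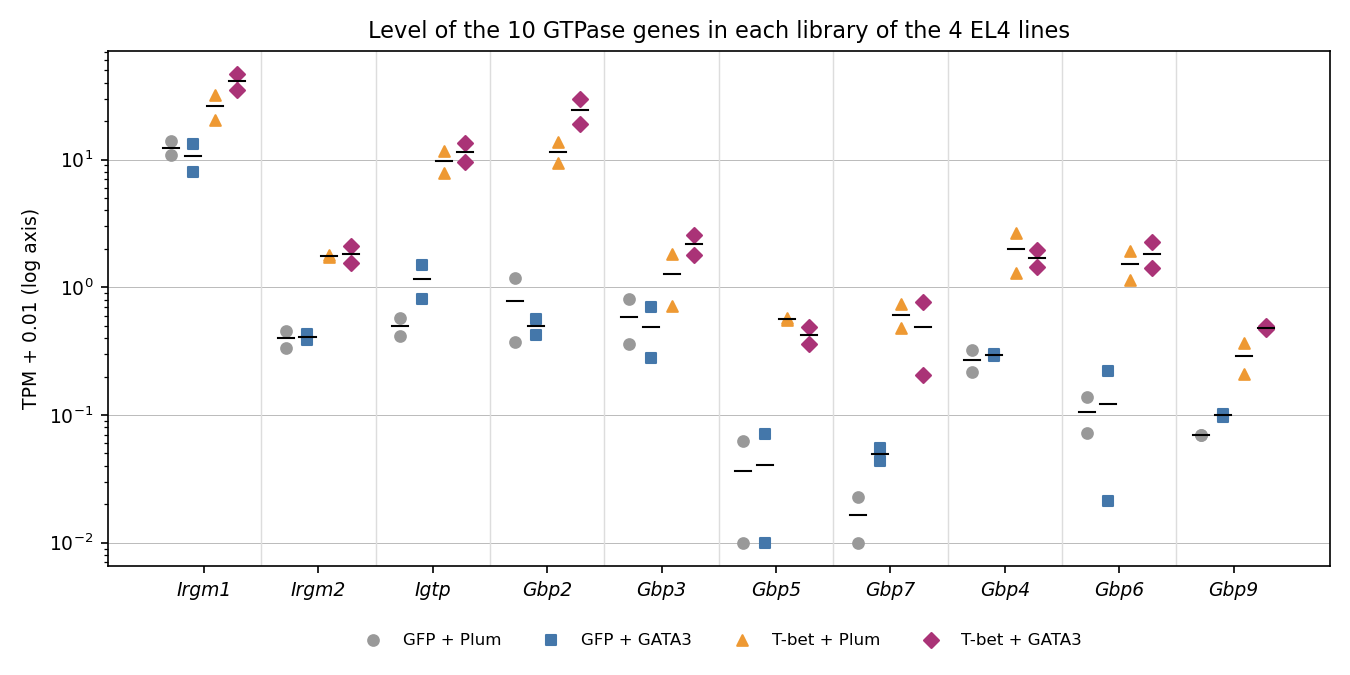
TPM of each member in each library on a log axis, with 0.01 added so that libraries at 0 can be drawn (symbols: libraries by line, n = 2; bars: means). In 9 of the 10 genes the 4 libraries with FLAG-T-bet sit above the 4 without, and in Gbp3 they overlap.

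In 9 of the 10 members all 4 libraries with FLAG-T-bet had a higher CPM than all 4 without, against 12.5% of the 14791 genes tested. The genes called higher in the averaged effect were 2.91% of all genes at both thresholds and 8.55% at the FDR alone, and the members numbered 9 of 10 under either rule. Their median log2 FC was 3.37, beside a median of 0.02 over all genes tested. All 10 members passed the filter on low counts.

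The comparisons between lines gave 8 or 9 calls each. Between T-bet + Plum and GFP + Plum, 8 members were called higher, at both thresholds and at the FDR alone, against 2.12% and 4.04% of all genes. Gbp9 was the least secure of the 8, with a log2 FC of 2.83 (edgeR FDR = 0.0321): it was no longer called in 13 of 17 alternatives, and its edgeR FDR was 0.0507 to 0.149 whichever library was left out. Gbp3 and Irgm1 did not pass there, with a log2 FC of 0.81 (SE 0.71, edgeR FDR = 0.600) and the value of 1.12 given above. Between T-bet + GATA3 and GFP + GATA3, 8 members were called under either rule, against 1.99% and 3.73% of all genes, and Gbp3 (log2 FC 1.92, SE 0.68, edgeR FDR = 0.162) and Gbp9 (a fitted 3.99-fold, edgeR FDR = 0.0677) did not pass. Between T-bet + GATA3 and GFP + Plum, 9 members were called under either rule, against 1.94% and 3.44% of all genes, with Gbp3 not called (log2 FC 2.08, SE 0.68, edgeR FDR = 0.146).

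These 3 counts rest on few libraries. The 8 calls between T-bet + Plum and GFP + Plum became 4 without T-bet + Plum replicate 1, 3 without T-bet + Plum replicate 2 and 3 without GFP + Plum replicate 2. Over all genes, in either direction, the calls fell from 446 to 277, 201 and 335 in the same order. The 8 calls in the presence of HA-GATA3 became 4 without T-bet + GATA3 replicate 1 and 5 without either GFP + GATA3 library, while those of all genes fell from 421 to 304, and to 230 and 197 without GFP + GATA3 replicates 1 and 2. The 9 calls between T-bet + GATA3 and GFP + Plum became 5 without GFP + Plum replicate 1 and 4 without T-bet + GATA3 replicate 1, against 386 calls over all genes that became 327 and 260. Over the 8 libraries left out in turn, the averaged effect had between 8 and 10 calls among the members and 504 to 710 over all genes, where all 8 libraries gave 9 and 666.

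**Figure D3:**
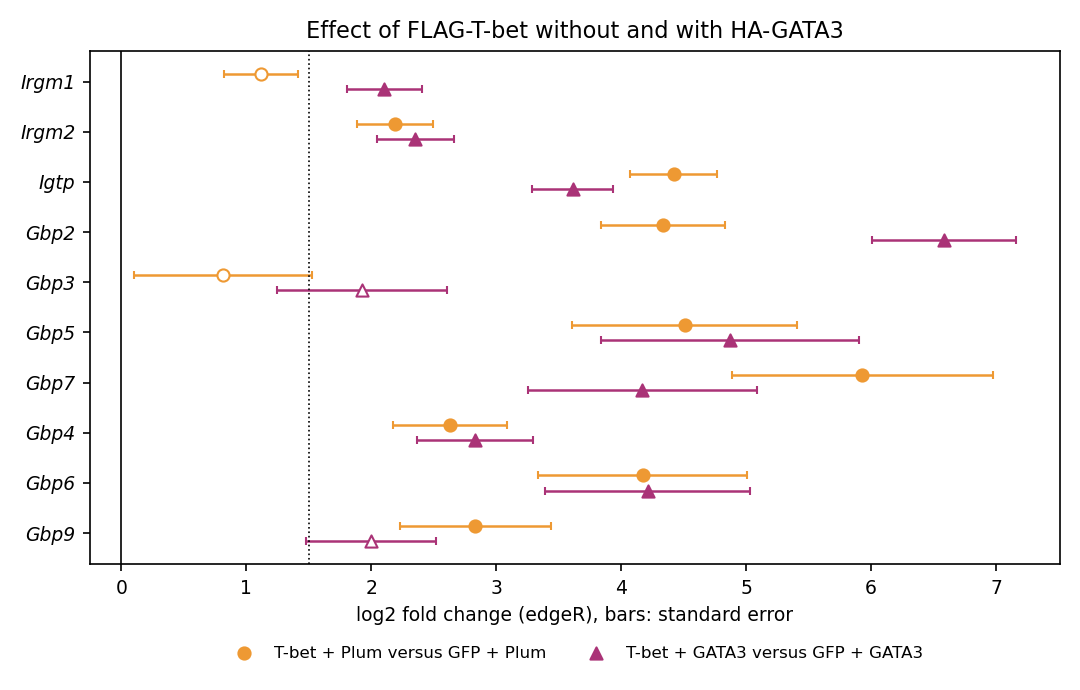
Log2 fold change of each member (edgeR, bars: standard error) between T-bet + Plum and GFP + Plum (circles) and between T-bet + GATA3 and GFP + GATA3 (triangles), with the dotted line at 1.5. Filled symbols are called genes, and all 20 values lie above 0, from 0.81 for Gbp3 to 6.58 for Gbp2.

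Levels per transcript length set the members in tiers. In GFP + Plum, Irgm1 stood at 12.4 ± 2.23 TPM (SD, n = 2), and the next were Gbp2 at 0.767 ± 0.567 and Gbp3 at 0.579 ± 0.320, with Igtp, Irgm2 and Gbp4 between 0.259 and 0.486 and the remaining 4 below 0.1. Neighbours from Gbp2 to Irgm2 in that order had overlapping libraries. In T-bet + GATA3, Irgm1 stood at 40.9 ± 8.10 TPM, Gbp2 at 24.5 ± 7.55 and Igtp at 11.5 ± 2.89, with no overlap between these 3. Gbp3, Irgm2, Gbp6 and Gbp4 followed at 1.69 to 2.15 TPM, with overlapping libraries, and Gbp7, Gbp9 and Gbp5 at 0.413 to 0.478 TPM, also overlapping. In T-bet + Plum, the libraries of Gbp2 (9.44 and 13.6 TPM) and Igtp (7.83 and 11.6 TPM) overlapped.

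HA-GATA3 alone was compared with the control line, and 0 of the 10 members were called between GFP + GATA3 and GFP + Plum, where 0.0203% of all genes were called in either direction (edgeR; DESeq2 also called 0 members). At an unadjusted p below 0.05 there was 1 member, Igtp, with a log2 FC of 1.14 (SE 0.39) and an edgeR FDR of 1. No fold is given for Gbp5 and Gbp7, which had at most 3 counts over each of these lines, and the other 8 ran from -1.16 for Gbp2 to 1.40 for Gbp9. The GATA3 effect averaged over both T-bet states also gave 0 calls, against 0.0473% of all genes, and 2 members at an unadjusted p below 0.05, Igtp (log2 FC 0.73, SE 0.24, edgeR FDR = 0.715) and Gbp9 (log2 FC 0.98, SE 0.41, edgeR FDR = 0.963). DESeq2 called 0 members there too.

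The comparison of T-bet + GATA3 with T-bet + Plum asks whether HA-GATA3 changes the set where FLAG-T-bet is present. It gave 0 calls among the members, against 0.0338% of all genes (edgeR; 0 with DESeq2). The 2 most abundant members had an unadjusted p below 0.05, Gbp2 with a log2 FC of 1.08 (SE 0.39) and Irgm1 with 0.71 (SE 0.29), both with an edgeR FDR of 1. Both T-bet + GATA3 libraries had a higher CPM than both T-bet + Plum libraries in 4 of the 10 members, against 14.2% of all genes. With no filter on low counts, the edgeR FDR was 0.000130 for Gbp2 and 0.0196 for Irgm1, at log2 FC of 1.10 and 0.73, below the threshold of 1.5. In that setting the genes called at both thresholds, over all genes, rose from 5 to 124.

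The interaction term tests whether the T-bet effect differs between the lines with and without HA-GATA3. It was called for 0 members and for 0% of all genes at the FDR threshold (edgeR), and DESeq2 called 0 members. At an unadjusted p below 0.05 there were 2 members, Gbp2 with an interaction of 2.25 (SE 0.82) and Irgm1 with 0.99 (SE 0.41) on the log2 scale. For Gbp2 the value was 0.69 without GFP + Plum replicate 2, the library with 34 counts against 7 in the other library of that line. With no filter on low counts both genes were called, at an edgeR FDR of 0.000236 for Gbp2 and 0.0422 for Irgm1, in a setting where calls over all genes rose from 0 to 145.

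**Figure D4:**
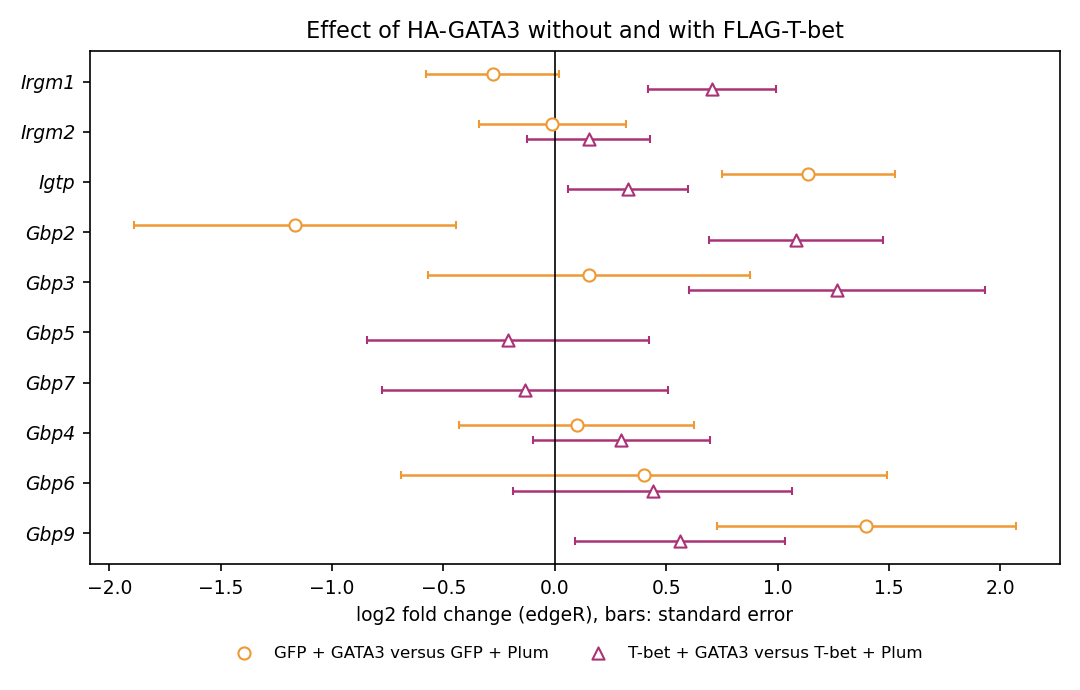
Log2 fold change of each member (edgeR, bars: standard error) between GFP + GATA3 and GFP + Plum (circles) and between T-bet + GATA3 and T-bet + Plum (triangles). None is called (open symbols), and values range from -1.16 to 1.40 and from -0.21 to 1.26, with Gbp5 and Gbp7 not drawn as circles since both lines had at most 3 counts.

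Members of these families are alike in sequence, and the counts were estimated by assigning reads to transcripts, so fragments from shared stretches were divided among genes. The share of 31-base words that a gene has in common with any other gene (Gencode M21 transcripts) was 2.88% for Irgm1, 3.10% for Gbp5, 4.85% for Gbp2, 5.64% for Gbp3, 10.7% for Irgm2, 14.7% for Gbp7, 14.9% for Gbp4, 15.9% for Igtp and 18.3% for Gbp9. For Igtp, all of it was shared with Irgm2. Gbp6 was the outlier at 74.3%, of which most was shared with the overlapping gene Gm43302 (67.8%) or with Gbp10 (51.4%). Gm43302 was assigned at most 14.5 counts and Gbp10 at most 5 in any library. These counts come from the same division of shared reads, so they do not bound the uncertainty in the level of Gbp6. The Gbp2 counts were whole numbers in 8 of 8 libraries (within 0.01), as when no read is divided between genes, while those of Gbp4, Gbp6, Gbp9, Irgm1 and Irgm2 were whole in 0.

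Summing the counts over relatives removes the division among the summed genes, but not that with Gm43302 (67.8% of the words of Gbp6) or with Gm43802 (10.8% of those of Gbp7), which were not in the sums. Averaged over both GATA3 states, the chromosome 3 genes (Gbp2, Gbp2b, Gbp3, Gbp5 and Gbp7) together had a log2 FC of 4.40 (SE 0.35, edgeR FDR = 0.000171), and the chromosome 5 genes (Gbp4, Gbp6, Gbp8, Gbp9, Gbp10 and Gbp11) had 2.79 (SE 0.27, edgeR FDR = 0.000434). Irgm1, Irgm2 and Igtp together had 1.92 (SE 0.19, edgeR FDR = 0.000484), a sum dominated by Irgm1. Between T-bet + GATA3 and T-bet + Plum the sums moved by 0.99, 0.34 and 0.59 in that order, with an edgeR FDR of 1 for each.

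The transcripts that took the reads differed between members. In the libraries with FLAG-T-bet, protein-coding transcripts held 97.0% of the counts of Gbp2, 99.4% of Irgm1 and 100% of Gbp3, Gbp7, Irgm2 and Igtp. For Gbp9 the share was 88.1%, and for Gbp6 it was 64.7%. Only 27.5% of the 70.9 counts of Gbp5 and 13.6% of the 208 counts of Gbp4 were on protein-coding transcripts. By counts, the main transcript of Gbp4 in those libraries was one of 4509 bases annotated as a target of nonsense-mediated decay, with 164 counts. Counts favour long transcripts. By TPM it held 31.1% to 63.7% of Gbp4 in each library, and a protein-coding transcript of 709 bases held 33.7% to 64.8%. The labels name both poly-A purification and depletion of ribosomal RNA, and whether strand was used in the counting is not given in the sources used here; the part of either in these shares was not tested. With protein-coding transcripts alone, 8 of the 10 genes passed the filter and 7 were called in the averaged effect.

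**Figure D5:**
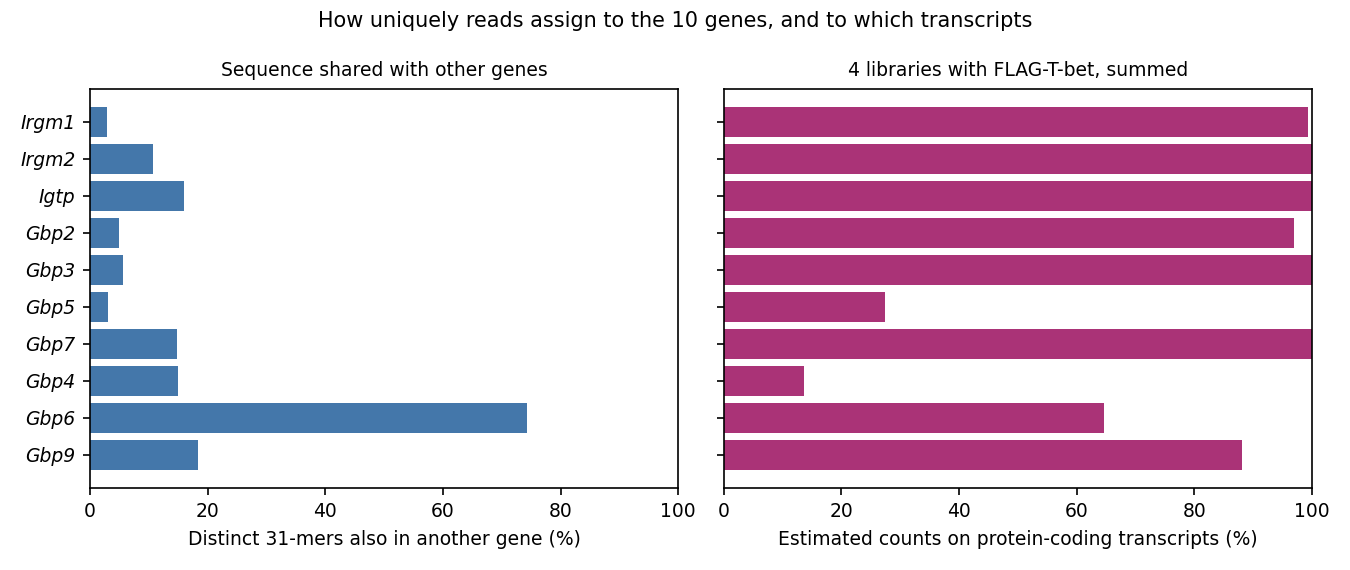
Left, the percentage of distinct 31-base words of each member that another gene also holds. Right, the percentage of estimated counts on protein-coding transcripts, summed over the 4 libraries with FLAG-T-bet. Gbp6 stands out on the left with 74.3%, and Gbp4 and Gbp5 on the right with 13.6% and 27.5%.

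The families hold other interferon-inducible GTPases. Of 20 listed, 14 were tested and 7 were called higher in the averaged T-bet effect, against 2.91% of all genes, with none lower. The median log2 FC of the 14 was 2.84, or 2.57 with genes at 0 counts set to their lower bound. Those with the lowest p were effector immunity-related GTPases: Iigp1, Ifi47, Tgtp1 and Tgtp2. Iigp1 had 2 and 0 counts in GFP + Plum, 3 and 2 in GFP + GATA3, 117 and 335 in T-bet + Plum, and 218 and 556 in T-bet + GATA3, a ratio of 217 (95% counting interval 105 to 541). Tgtp1 had 0 counts in each of the 4 libraries without FLAG-T-bet and 33 to 149 in the others, at least 130-fold higher against a floor of 3 counts over the group. Ifi47 had a ratio of 404 (72.0 to 15996) and Tgtp2 of 173 (47.4 to 1434). These 4 effector genes had at most 3 counts in each library without FLAG-T-bet, where Irgm1 had 156 to 446.

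Genes of interferon gamma signalling are given beside the members because the families are induced by it. Ifng, the cytokine itself, had 3 and 11 counts in GFP + Plum, 6 and 8 in GFP + GATA3, 31901 and 40777 in T-bet + Plum, and 32146 and 45323 in T-bet + GATA3. Ifngr2, which encodes the signalling chain of its receptor, went the other way, with 109 and 69, 73 and 221, 1 and 2, and 9 and 5 counts in the same order. Its averaged log2 FC was -4.70 (SE 0.45, edgeR FDR = 0.000416). Irf1, which binds ISRE elements, had an averaged log2 FC of 1.33 (SE 0.11, edgeR FDR = 0.000238), under 1.5. It was called between T-bet + Plum and GFP + Plum (1.69, SE 0.16, edgeR FDR = 0.00108). Between T-bet + GATA3 and GFP + GATA3 it was not (0.98, SE 0.16, edgeR FDR = 0.0110). Irf8 was called higher in the averaged effect, with a log2 FC of 2.43 (SE 0.42, edgeR FDR = 0.00727). Of the 14 tested genes of this list, 2 were called higher and 1 lower, or 8 and 1 at the FDR alone, with a median log2 FC of 0.83. Over all genes, 2.91% were called higher, or 8.55% at the FDR alone. Whether these genes have a part in the levels of the GTPases was not tested.

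Further lists of interferon genes were tested in the same way, against 2.91% of all genes called higher. Of 5 type I interferon signalling genes tested, Irf7 was called higher, with a log2 FC of 1.86 (SE 0.42, edgeR FDR = 0.0211), and the list's median was -0.10. Of 21 other interferon-stimulated genes, 6 were called higher and none lower, with a median of 1.12. Among them were Parp14 (log2 FC 1.67, SE 0.15, edgeR FDR = 0.000265), the immunoproteasome subunit gene Psmb10 (1.59, SE 0.17, edgeR FDR = 0.000688), the nucleic acid sensor gene Zbp1 (2.52, SE 0.34, edgeR FDR = 0.00203) and the ubiquitin-like modifier gene Isg15 (1.72, SE 0.26, edgeR FDR = 0.00387). The called GTPases among the 10 members had values from 1.61 to 5.46.

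Partners of the GTPases were also listed, for the averaged T-bet effect, where 666 of the 14791 genes tested were called in either direction. With that share, 0 calls in a list of 5 or 10 genes does not set the list apart. Autophagy conjugation proteins guide the immunity-related GTPases to vacuoles, and 0 of the 10 tested genes of that list were called (edgeR), with 1 lower at the FDR alone, Gabarap (log2 FC -0.37, SE 0.10, edgeR FDR = 0.0402), and a median of -0.04. The 5 prenylation enzyme genes gave 0 calls under either rule, with a median of -0.05. Their products attach lipid anchors like those of Gbp2 and Gbp5 or process the protein end that carries such an anchor. Of 7 inflammasome genes, Il18 was called higher, with a log2 FC of 1.74 (SE 0.17, edgeR FDR = 0.000519), and at the FDR alone 2 were higher and 2 lower, with a median of -0.30.

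Across the 8 libraries, the 10 genes varied together to different degrees, as a description over points that share 4 lines. The closest pair was Gbp2 and Irgm2, from different chromosomes, with Pearson's r = 0.988 between their log2 CPM. The lowest r was 0.590, between Gbp3 and Gbp5, and Gbp3 was a partner in each of the 5 lowest values. Outside the families, the genes most like the mean profile of the members among 8937 protein-coding genes of at least 5 CPM were Klrd1 (r = 0.994), Orai1 (0.993), Fam46c (0.993), Rcn1 (0.991) and Epb41 (0.989). Klrd1, which encodes the NK-type receptor chain CD94, was at 0.186 to 0.634 CPM without and 11.9 to 34.1 CPM with FLAG-T-bet, while Orai1, a calcium channel gene, was at 17.5 to 22.2 CPM without and at 48.7 to 79.3 CPM with it.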

How the data were processed

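The study's methods state that RNA from the EL4 lines was poly-A selected (the labels also name depletion of ribosomal RNA), read as 100 bp paired ends, checked with FastQC, trimmed with Trim Galore and quantified with kallisto on Gencode transcripts of GRCm38 (the submitters' notes name mm10); the release is M20 in the methods and M18 on the tables, and tool versions are not given in the sources used here. The deposited tables give, per transcript, an estimated count and a TPM value made by the authors with kallisto. Both were summed per gene by the symbol in the transcript name, and summed counts were rounded. The replicates are harvests of the same line on different days, per the study's methods.

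Genes were tested with edgeR 4.0.16 in R 4.3.3 (TMM, filterByExpr, quasi-likelihood, a fit over the 8 libraries with each line a group, Benjamini-Hochberg over 14791 genes). The SE is the log2 FC over the square root of F. Calls needed a log2 FC beyond 1.5 in size with an FDR up to 0.05, and for the interaction the FDR alone. CPM uses TMM-scaled library sizes. The script was tested on simulated data. Alternatives were DESeq2 1.42.0 (with and without length offsets), limma 3.58.1 on log2(TPM + 1), other filters, scaling, transcript sets and samples, and a replicate block. Replicates within a line differed beyond sampling noise (chi-square per degree of freedom of 10.2 to 30.9). Scaling by library size alone moved the median log2 FC of all genes by -0.0851 to 0.00741.

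The members and lists were chosen with earlier results of these data known. The text names all members, Ifng, Irf1 and, of each list, at most 4 called genes with the lowest p in the averaged T-bet effect; a further gene named by the rule is not reported here. Genes alike in profile are the 5 of at least 5 CPM with the highest r to the mean standardised log2 CPM (prior count 2) of the members. Gbp2b, Gbp8, Gbp10, Gbp11, Gm43302, Gm43802, Gabarap, Cd68 and Ncr1 were named after their values were seen. Intervals are exact, at 95%. Promoters come from RefSeq, whose start can differ from Gencode's. Positions and 31-base words come from Gencode M21, a later release than the tables'.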

Additional observations from a re-analysis of the deposited data

How the results depend on the processing

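Of the member values recomputed under the alternatives, 512 kept their direction and their side of the thresholds, 62 no longer passed, 14 newly passed and 1 reversed. The reversal was Igtp between GFP + GATA3 and GFP + Plum, not called in either form, which was -0.191 on the log2 scale when Irgm1, Irgm2 and Igtp were summed, by construction the value of a sum led by Irgm1. With at least 10 counts in every library only 3 members (Irgm1, Irgm2 and Igtp) could be tested, and 2 were called between T-bet + Plum and GFP + Plum and 3 in each other T-bet comparison. With limma on log2(TPM + 1), which compresses levels below 1 TPM, 2 were called between T-bet + Plum and GFP + Plum, 3 between T-bet + GATA3 and GFP + Plum, 3 between T-bet + GATA3 and GFP + GATA3, and 2 in the averaged effect. With protein-coding transcripts only, 5 were called between T-bet + Plum and GFP + Plum. With libraries left out in turn, the calls ranged from 3 to 7 between T-bet + Plum and GFP + Plum, from 4 to 9 between T-bet + GATA3 and GFP + Plum, and from 4 to 9 between T-bet + GATA3 and GFP + GATA3, a lone library being assumed to vary like the other lines. Without a filter on low counts, 2 interactions passed among the members, Gbp2 and Irgm1, while those over all genes rose from 0 to 145, and the cause was not tested. DESeq2 called 7, 9, 8 and 9 members in these 4 T-bet comparisons, in the same order. For DESeq2, limma, the protein-coding transcripts and the replicate block, calls over all genes are not given here. A setting that calls fewer or more genes everywhere thus cannot be told from one that affects the members. Same-numbered libraries deviated together only weakly (r from -0.0455 to 0.302, mean 0.142, over pairs of lines), so the numbers were not taken as pairs; with the replicate block 8, 9, 8 and 9 members were called, and none of 35 member values changed its call. The fit to the libraries of a comparison alone does not exist for the averages and the interaction, which use all 8. Depth limits Gbp5, Gbp7 and Gbp9 most: in lines without FLAG-T-bet they had at most 5 counts in any library.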

Other observations

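Gvin1, which encodes a very large interferon-inducible GTPase, was examined after its values were seen. It had 89 counts (11.1 CPM) in T-bet + Plum replicate 1 and 0 to 11 counts in each of the other 7 libraries, 9 of them in T-bet + Plum replicate 2. The members did not stand out in that library: Gbp2 was at 20.9 CPM there and at 31.2 CPM in replicate 2, and Irgm2 was at 5.48 and 5.74 CPM.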
